A study of Mus musculus with 26 samples.

Results

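The open chromatin described here lies at 10 genes of the AP-1 family: Fos, Fosb, Fosl1, Fosl2, Jun, Junb, Jund, Atf3, Batf and Batf3. A peak was taken as a member when the authors' annotation named 1 of these genes as its nearest start site. This gave 233 of the 96238 peaks used from the table of inbred strains. It gave 452 of the 213225 peaks used from the table of F1 hybrids. The members are 10 of the 17272 genes named in the inbred table. Open chromatin was profiled by ATAC-seq (a transposase cuts accessible DNA and adds sequencing adapters) in Kupffer cells, macrophages that reside in liver sinusoids. The cells were sorted from male mice that had all fasted overnight, and livers were digested in the presence of the transcription inhibitor flavopiridol. Lipopolysaccharide (LPS) from E. coli O114:B4 was injected into the peritoneum at 0.1 mg/kg for 2 h, while control mice received no injection. The inbred table held 17 libraries, with n = 3 for C57BL/6J LPS, n = 2 for BALB/cJ LPS and n = 4 for each of the A/J, C57BL/6J and BALB/cJ controls. The hybrid table held 9 libraries of CB6F1/J mice, the first-generation cross of BALB/cJ and C57BL/6J: LPS (n = 5) and control (n = 4). The descriptions of the CB6F1/J LPS samples list peak files named for chow, whereas their titles and columns name LPS, and titles and columns were followed. A figure legend of the study swaps the sizes of the inbred LPS groups, and here the sizes are those of the labels and columns. The comparisons ask how strain background and LPS shape these loci, and the hybrid puts both parental alleles into the same nucleus. The labels number replicates without naming the mouse behind each, so p-values measure the spread between libraries.

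FOS, JUN, ATF and BATF proteins are basic leucine zipper factors that bind DNA only as dimers. JUN proteins pair with themselves or with FOS proteins, which cannot pair with one another, and the dimers recognise the AP-1 site, TGACTCA or TGAGTCA. Fos, Fosb, Jun, Junb and Atf3 are classic immediate-early genes, whose transcription starts within minutes of a signal such as LPS. BATF and BATF3 lack a transactivation domain, pair with JUN proteins and cooperate with IRF4 or IRF8. In macrophages AP-1 factors act with PU.1 at enhancers, and ATF3 restrains the transcription of inflammatory genes.

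Regions are named by gene and by distance from its annotated start, and the 201 reference bases under the peak are printed for the 6 regions on which the results turn. The first pair gained accessibility under LPS and held AP-1 sites, the third held no AP-1 site but NF-kB motifs, the fourth lay upstream of Jun, and the last pair differed between the parental alleles in hybrid mice. The letters are mm10 (GRCm38), plus strand, read from the RefSeq genome of that build. Capitals mark AP-1 sites, or NF-kB motifs in the Batf region.
Atf3, 6.8 kb upstream, chr1:191189993-191190193: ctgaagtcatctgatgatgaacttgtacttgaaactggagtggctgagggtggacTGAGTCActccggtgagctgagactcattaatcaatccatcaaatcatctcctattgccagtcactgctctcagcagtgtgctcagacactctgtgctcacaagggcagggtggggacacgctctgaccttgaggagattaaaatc
Fosl2, 200.4 kb upstream, chr5:31935993-31936193: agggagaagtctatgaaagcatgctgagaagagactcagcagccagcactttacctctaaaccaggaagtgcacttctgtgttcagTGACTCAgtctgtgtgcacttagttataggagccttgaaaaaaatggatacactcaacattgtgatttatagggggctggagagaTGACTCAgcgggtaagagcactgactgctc
Batf, 16.9 kb downstream, chr12:85703563-85703763: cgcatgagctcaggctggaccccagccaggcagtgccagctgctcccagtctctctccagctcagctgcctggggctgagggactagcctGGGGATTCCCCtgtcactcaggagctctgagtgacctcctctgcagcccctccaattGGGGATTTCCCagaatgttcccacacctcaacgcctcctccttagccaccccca
Jun, 75.9 kb upstream, chr4:95128059-95128259: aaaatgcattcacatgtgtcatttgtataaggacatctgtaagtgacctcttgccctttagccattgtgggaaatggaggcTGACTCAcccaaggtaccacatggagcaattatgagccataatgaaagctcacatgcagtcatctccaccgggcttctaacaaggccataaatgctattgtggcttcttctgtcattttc
Fosl2, 23.8 kb upstream, chr5:32112618-32112818: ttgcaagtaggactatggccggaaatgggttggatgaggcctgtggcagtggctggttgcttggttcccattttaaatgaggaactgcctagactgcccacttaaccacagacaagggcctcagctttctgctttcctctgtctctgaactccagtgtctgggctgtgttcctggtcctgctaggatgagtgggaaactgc
Batf3, 21.1 kb downstream, chr1:191119390-191119590: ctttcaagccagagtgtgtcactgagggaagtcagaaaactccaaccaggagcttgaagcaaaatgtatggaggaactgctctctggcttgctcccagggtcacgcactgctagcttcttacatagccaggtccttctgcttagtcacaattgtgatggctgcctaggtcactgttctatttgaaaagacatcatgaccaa

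Tags in the peaks used ran from 2079333.5 to 7536815.5 tags in 16 of the 17 inbred libraries, with 47196703 tags in BALB/cJ control replicate 4. In the hybrid libraries they ran from 11434670.5 to 24946164.5 tags. The sample titles and column headers name no library date or batch, so an effect of either could not be separated from that of LPS. A figure of the study colours the parental control and LPS libraries by batch, but its legend does not say which library belongs to which. Mitochondrial peaks held 0% of tags in the C57BL/6J controls and 18.6 to 28.7% in the other inbred libraries, and these peaks were left out. One library, C57BL/6J LPS replicate 1, stood apart from its group toward the controls. Over the 15164 peaks called higher under LPS in BALB/cJ, its median log2 difference from its own controls was 0.74, against 1.61 and 1.75 in C57BL/6J LPS replicates 2 and 3. Over the 10584 peaks called lower there, the medians were -0.75, -1.05 and -1.18 in replicates 1, 2 and 3. The C57BL/6J LPS counts over all members and by gene are therefore given with and without it, while counts by position and by motif include it. The 10 Kupffer cell markers (Clec4f, Timd4, Vsig4 and others) all had a promoter peak. Their summed level was 563 to 907 in C57BL/6J LPS, 563 to 669 in BALB/cJ LPS, 1079 to 1213 in A/J, 1052 to 1200 in C57BL/6J control and 988 to 1243 in BALB/cJ control libraries. Among 6 monocyte markers 2 had a promoter peak, and their sum was 33.5 to 40.7 in C57BL/6J LPS against 16.2 to 26 in C57BL/6J control, and 21.8 to 33.4 in BALB/cJ LPS against 8.05 to 13.7 in BALB/cJ control libraries. In C57BL/6J other lists also stood apart, each on 1 or 2 of 6 markers, with hepatocyte sums of 11.2 to 20.7 under LPS against 4.81 to 8.7 in controls, endothelial sums of 26.7 to 40.6 against 16 to 19.9, and stellate cell sums of 4.25 to 7.02 against 9.28 to 17.3. In BALB/cJ the endothelial and hepatocyte ranges overlapped, the stellate cell sum was 3.48 to 6.16 under LPS against 7.65 to 23.4, and the neutrophil sum, on 3 of 6 markers, 79.3 to 90.6 against 118 to 177. In hybrids the Kupffer sum over 9 of the 10 markers was 2123 to 2898 under LPS against 3548 to 4272 in controls, and the sum over 2 of 6 endothelial markers 144 to 252 under LPS against 52.9 to 110, while the stellate cell sum was 32.6 to 78.1 against 81.9 to 112. The part of such shifts in the LPS results was not tested, and in sorted bulk cells fewer open cells and less opening per cell cannot be told apart.

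LPS moved accessibility at the AP-1 genes in both directions, but not evenly among them: Fosb and Jund lost peaks and gained none, while in the inbred strains most of the called Batf and Fosl2 peaks were gains. These gains rest on few libraries: without C57BL/6J LPS replicate 3, Fosl2 had 1 higher and 0 lower and Batf 2 and 1. A peak was called when the edgeR quasi-likelihood test gave an adjusted p under 0.05 and a log2 ratio beyond 1 in either direction. In C57BL/6J, 26 of 225 tested members were higher (11.6%) and 40 lower (17.8%), where 12.3% of all peaks were called higher and 8.07% lower. In BALB/cJ, 29 of 232 were higher (12.5%) and 56 lower (24.1%), against 16.2% and 11.3% of all peaks. In CB6F1/J, 46 of 450 were higher (10.2%) and 111 lower (24.7%), against 14.3% and 10.5%. The members' share of gains was thus below that of all peaks in each comparison, and their share of losses above it. The hybrid values are perfectly mapped tags. Across peaks, the control columns of these and of all mapped tags did not follow each other. The r of deviations was -0.04 to 0.01, against 0.99 in the LPS libraries. In control replicates 1, 2 and 4 perfectly mapped tags outnumbered all mapped tags, which a subset cannot do. On mm10 they were 17537940.5 against 10349565.5, 11434670.5 against 8831959 and 14452453 against 6784424.5 tags. In control replicate 3 and every LPS library all mapped tags were more. Which control columns match their labels was not tested, so the hybrid LPS ratios rest on controls of uncertain identity. On all mapped tags the split turned round, with 66 members higher and 44 lower of 443. Of the 46 hybrid gains, 41 were also called on all mapped tags, but of the 106 hybrid losses that could be tested on both only 31 were, with 0 called the opposite way. The hybrid losses thus depend on the tags used. The inbred libraries have no second set of columns to compare. Fractions of a tag stood at 0% of peaks in their LPS columns, against 45.7 to 49.7% in C57BL/6J and BALB/cJ control columns. Like the perfectly mapped hybrid columns, the C57BL/6J controls held 0% mitochondrial tags, against 19.6 to 28.1% in C57BL/6J LPS. Whether these columns count the same kind of tags was not tested, and such a difference cannot be separated from LPS. The median log2 ratio of the members was -0.25 in C57BL/6J, -0.35 in BALB/cJ and -0.52 in CB6F1/J, where the median of all peaks was -0.03, -0.07 and -0.09. Without C57BL/6J LPS replicate 1 the C57BL/6J counts were 33 higher and 51 lower. Without replicate 3 they were 12 and 22, and without replicate 2 they were 19 and 30. In BALB/cJ they were 26 and 41 without LPS replicate 1, and 21 and 37 without LPS replicate 2. Count windows of 1000 bases around neighbouring peaks overlap, as they do for 155 of the 233 inbred members, so close members share tags and are not independent.

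**Figure D1:**
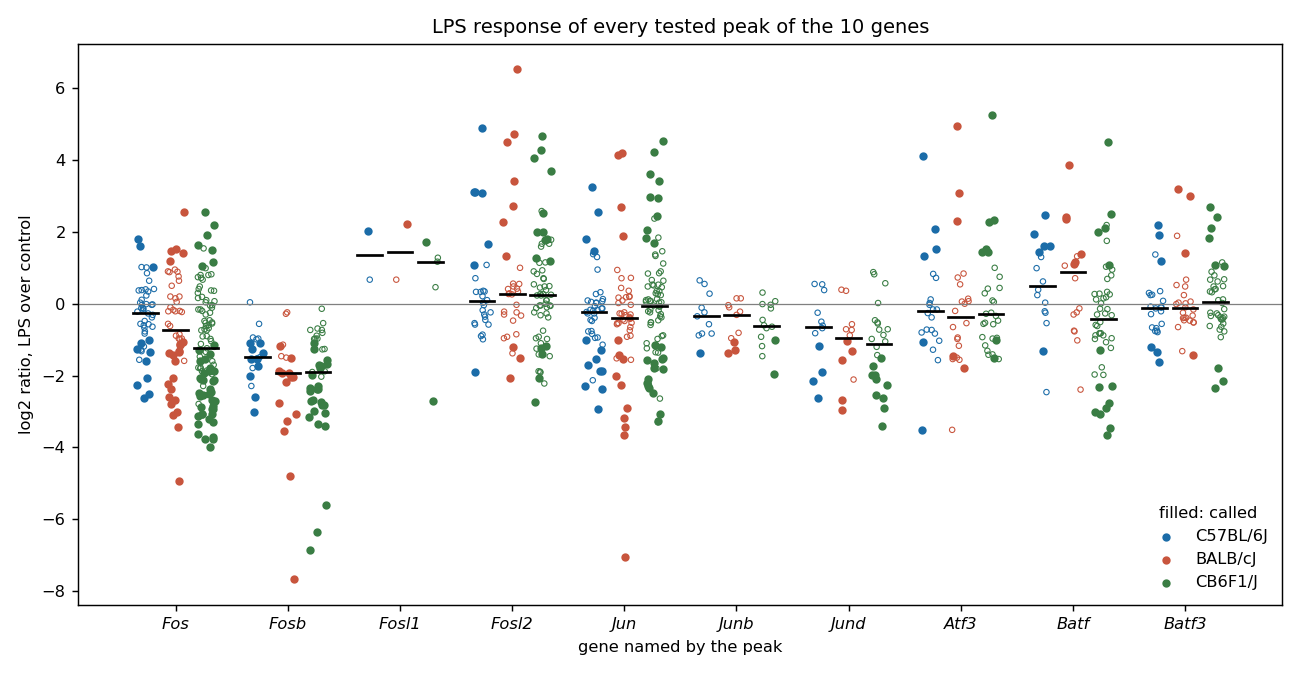
Log2 ratio of LPS over control (vertical axis) for every tested member peak, by gene, in C57BL/6J, BALB/cJ and CB6F1/J (perfectly mapped tags), with filled points for called peaks, open points for the others and a black line at the median of each gene. Called points of Fosb, Junb and Jund lie only below 0, and the Fos points called lower number 9, 18 and 38.

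Both inbred strains called 20 of the same members higher, which is 76.9% of the 26 in C57BL/6J and 69% of the 29 in BALB/cJ. They called 26 of the same members lower, which is 65% of the C57BL/6J and 46.4% of the BALB/cJ list, and 0 members in opposite directions. Of the 20 shared gains, 19 overlapped a hybrid peak by at least 100 bases and 18 were higher there too. Of the 26 shared losses, 21 overlapped a hybrid peak and 15 were lower there too. The same overlap was not counted over all peaks, so this agreement is not shown to be particular to the members.

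Fos encodes the founding FOS partner of JUN, and accessibility over its gene body fell under LPS while a few distal regions opened. Of 48 tested Fos peaks, 3 were higher and 9 lower in C57BL/6J (5 and 12 without replicate 1), and 5 were higher and 18 lower in BALB/cJ. Without C57BL/6J LPS replicate 3 the Fos counts were 2 and 5, and without BALB/cJ LPS replicate 1 they were 3 and 11. In hybrids 7 of 103 were higher and 38 lower, but on all mapped tags 14 of 102 were higher and 9 lower, so that the direction of the hybrid Fos count depends on the tags. The peak in the 5′ UTR, 0.1 kb after the start, held 303, 148 and 103 normalised tags in C57BL/6J LPS replicates 1 to 3 against 358, 387, 401 and 322 in C57BL/6J controls. Normalised tags are window counts scaled by TMM factors to the mean library. In BALB/cJ it held 67.1 and 76.5 under LPS against 283, 411, 298 and 220 in controls. No LPS library of either strain reached a control library of its strain, and replicate 1 of C57BL/6J lay nearest to them. The log2 ratio was -1.02 in C57BL/6J (adjusted p = 8.4e-04, edgeR), -1.52 without replicate 1, and -2.07 in BALB/cJ (adjusted p = 9.5e-07).

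The next Fos peak, in intron 1 at 0.6 kb (chr12:85474410-85474610), fell further. It held 167, 40.8 and 26.3 normalised tags in C57BL/6J LPS against 290, 384, 297 and 263 in C57BL/6J control libraries. Its BALB/cJ values were 27 and 24.6 under LPS against 225, 331, 149 and 139 in controls, and A/J controls held 307, 411, 265 and 230. The log2 ratio was -2.07 ± 0.35 in C57BL/6J (SE, adjusted p = 4.8e-05, edgeR) and -3.17 without replicate 1, so that this library sets much of the C57BL/6J size. It was -3.01 ± 0.46 in BALB/cJ (adjusted p = 5.9e-06). In hybrids the same peak held 117, 95.9, 119, 94.8 and 104 tags under LPS against 715, 890, 1162 and 797 in controls, a log2 ratio of -3.07 ± 0.16 (adjusted p = 4.1e-14). All 5 hybrid LPS libraries lay far below all 4 controls, but on all mapped tags the ratio was -1.0 (adjusted p = 1.3e-04) and missed the size limit of a call. The peak in Fos exon 2, at 1.3 kb, shares tags with it and fell by 2.25 and 3.11 on the log2 scale in C57BL/6J and BALB/cJ. Downstream, the intergenic Fos region at 36.8 kb was higher, with log2 ratios of 1.80 in C57BL/6J and 2.56 in BALB/cJ. In hybrids this region held 330, 267, 334, 328 and 386 tags under LPS against 56.5, 54.5, 37.2 and 75.4 in controls (log2 2.55 ± 0.22, adjusted p = 3.6e-10, edgeR).

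Fosb, whose protein is a close relative of FOS, lost accessibility at most of its peaks, though not by a call at its promoter. Of 19 tested peaks 10 were lower in C57BL/6J and 14 in BALB/cJ, in hybrids 26 of 41, and none was higher in any of the 3 comparisons. Without C57BL/6J LPS replicate 1 the lower Fosb peaks numbered 14, without replicate 3 they numbered 6, and without BALB/cJ LPS replicate 2 they numbered 9. On all mapped tags 12 of 40 hybrid Fosb peaks were lower and 0 higher. The median log2 ratio over the tested Fosb peaks was -1.49 in C57BL/6J, -1.93 in BALB/cJ and -1.90 in CB6F1/J. The intergenic region 16.5 kb upstream (chr7:19326469-19326669) held 142, 62.8 and 52.6 normalised tags in C57BL/6J LPS against 367, 342, 385 and 229 in C57BL/6J control libraries. BALB/cJ libraries held 36.6 and 31.7 under LPS against 224, 330, 177 and 202. Its log2 ratio was -2.0 ± 0.25 in C57BL/6J (SE, adjusted p = 5.0e-07, edgeR), -2.49 without replicate 1, and -2.77 ± 0.31 in BALB/cJ (adjusted p = 6.8e-08). The hybrid ratio was -1.98 on perfectly mapped and -0.65 on all mapped tags, and in each inbred strain the groups did not overlap.

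The intron 1 peak of Fosb at 1.9 kb held 32.3, 16.1 and 5.58 tags in C57BL/6J LPS against 99.1, 140, 81.9 and 82.4 in C57BL/6J control libraries. BALB/cJ had 11.3 and 4.4 under LPS against 102, 89.7, 55 and 63.9 in controls. The log2 ratios were -2.59 and -3.27, and in hybrids -2.72 on perfectly mapped and -1.77 on all mapped tags, called on both. By contrast the Fosb promoter peak at 0.1 kb gave log2 ratios of -0.56 in C57BL/6J (adjusted p = 0.38, edgeR), -0.28 in BALB/cJ (adjusted p = 0.73) and -0.97 in CB6F1/J (adjusted p = 3.1e-04), and was not called in any of them. Further downstream, the Fosb region at 6.8 kb had no tag in BALB/cJ LPS libraries against 30.3, 35.1, 5.37 and 3.23 in BALB/cJ controls, so that no fold is given.

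Fosl1 and Fosl2 encode FRA-1 and FRA-2, FOS relatives that appear later after stimulation. Both had inbred peaks that were called higher. Fosl1 had only 2 inbred peaks, and the one in intron 1 at 1.1 kb, which has an AP-1 site, held 19.7, 30.6 and 39.8 tags in C57BL/6J LPS against 4.64, 8.02, 5.2 and 13.3 in C57BL/6J control libraries. In BALB/cJ it held 42.7 and 32.5 under LPS against 6.59, 10.7, 5.37 and 8.29. The log2 ratios were 2.03, 2.23 and, in hybrids, 1.71, where 1 of 5 Fosl1 peaks was also lower (log2 -2.72). Of the Fosl2 peaks, 6 of 28 were higher and 1 lower in C57BL/6J, 7 of 30 higher and 3 lower in BALB/cJ, and 11 of 64 higher and 5 lower in CB6F1/J (15 and 4 on all mapped tags). The inbred Fosl2 counts moved with single libraries: 7 and 2 without C57BL/6J LPS replicate 1, 3 and 2 without replicate 2, 1 and 0 without replicate 3, and 3 and 0 without BALB/cJ LPS replicate 2.

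The strongest Fosl2 gains lay far from its start, several of them in introns of the upstream gene Babam2. The region 200.4 kb upstream, with the pair of AP-1 sites printed above, held 8.43, 85.8 and 95.6 normalised tags in C57BL/6J LPS against 6.96, 9.63, 10.4 and 3.99 in C57BL/6J control libraries. Its BALB/cJ values were 44.4 and 64.2 under LPS against 6.59, 1.95, 9.4 and 0.0921 in controls. C57BL/6J LPS replicate 1 lay among its controls, while the other 4 LPS libraries lay above every control. The log2 ratio was 3.08 ± 0.69 in C57BL/6J (SE, adjusted p = 0.0011, edgeR), 3.59 without replicate 1, and 4.50 ± 0.85 in BALB/cJ (adjusted p = 1.1e-04). In hybrids it held 337, 281, 272, 308 and 309 tags under LPS against 14.1, 12.6, 21.8 and 13.5 in controls (log2 4.28 ± 0.25, adjusted p = 2.8e-13).

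A second Babam2 intron region, 80.7 kb upstream of Fosl2, had 0, 11.9 and 17.5 tags in C57BL/6J LPS against 0, 1.6, 0 and 0 in C57BL/6J control libraries, and 14.8 and 40.5 in BALB/cJ LPS against 0, 2.93, 0 and 0.829 in BALB/cJ controls. With controls this close to 0 no inbred fold is given. The hybrid libraries, which are deeper, held 161, 134, 142, 138 and 157 under LPS against 10.4, 15.4, 17.9 and 2.25 (log2 3.69 ± 0.37, adjusted p = 8.3e-09, edgeR). A further region, 27.1 kb downstream and without an AP-1 site, held 120, 189, 153, 94.8 and 134 tags in hybrid LPS against 1.88, 11.2, 0 and 9 in hybrid control libraries (log2 4.67). At the Fosl2 promoter, 0.7 kb upstream and itself with an AP-1 site, the log2 ratio was -0.58 in C57BL/6J, -0.24 in BALB/cJ and 0.25 in CB6F1/J, and it was called in none.

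**Figure D2:**
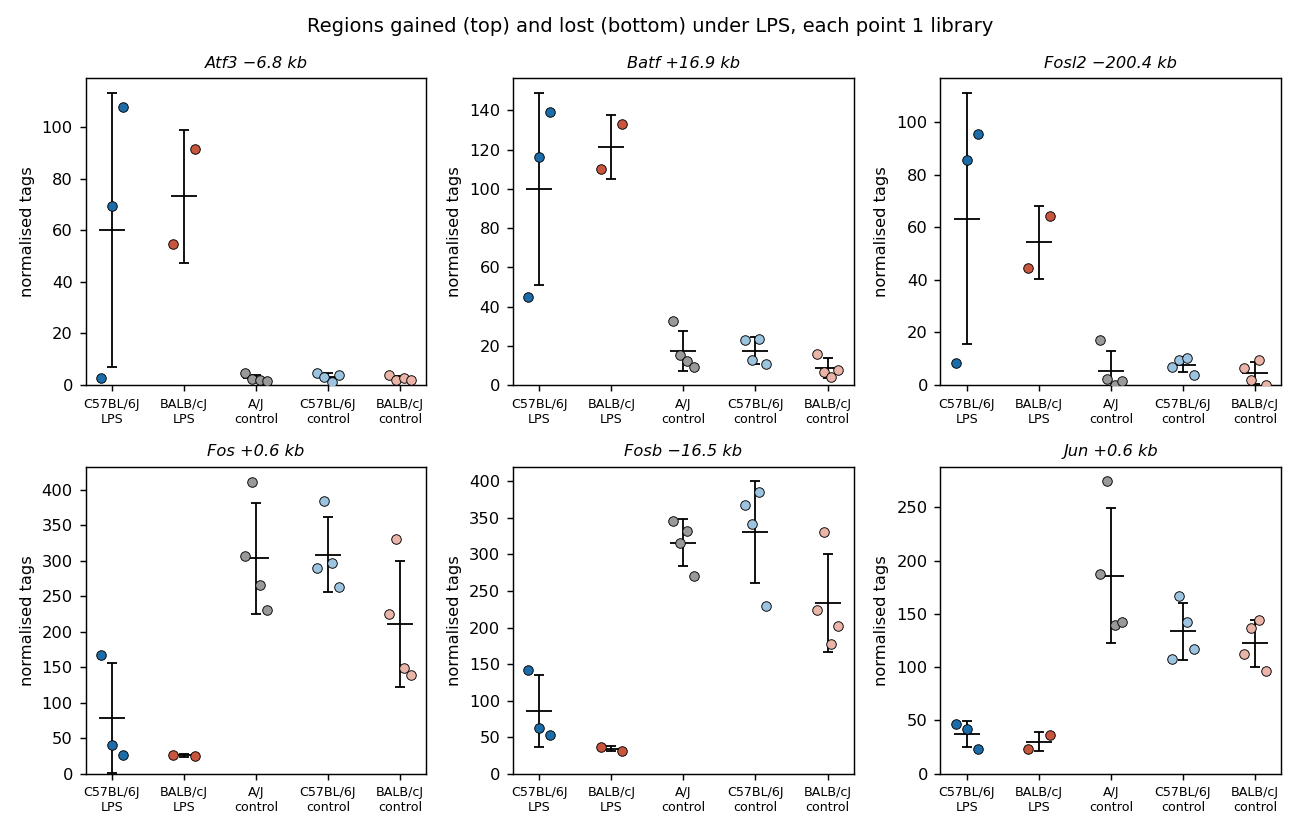
Normalised tags in each inbred library (points) with group mean and SD (bars) at 3 regions that gained accessibility under LPS (Atf3 6.8 kb upstream, Batf 16.9 kb downstream, Fosl2 200.4 kb upstream) and 3 that lost it (Fos 0.6 kb, Fosb 16.5 kb upstream, Jun 0.6 kb). C57BL/6J LPS replicate 1 is the LPS point nearest to the controls in all 6 panels.

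Jun, the founding JUN protein, also lost accessibility around its start, and distal regions opened. Of the tested Jun peaks 4 of 43 were higher and 9 lower in C57BL/6J, 4 of 46 higher and 10 lower in BALB/cJ, and 10 of 80 higher and 15 lower in CB6F1/J (11 and 13 of 78 on all mapped tags). Without C57BL/6J LPS replicate 1 the Jun counts were 5 and 12, without replicate 2 they were 3 and 4, without replicate 3 they were 3 and 5, and without BALB/cJ LPS replicate 2 they were 3 and 6. In the 5′ UTR, at 0.6 kb, the peak held 46.3, 41.6 and 23.1 normalised tags in C57BL/6J LPS against 108, 167, 142 and 117 in C57BL/6J control libraries. BALB/cJ had 23.5 and 36.1 under LPS against 112, 137, 144 and 96.3 in controls. The groups did not overlap, with log2 ratios of -1.86 (adjusted p = 5.8e-06, edgeR) and -2.02 (adjusted p = 9.6e-06), and -1.21 in hybrids (-0.88 and no call on all mapped tags). The Jun promoter peak 0.1 kb upstream held 295, 312 and 260 tags in C57BL/6J LPS against 576, 618, 515 and 505 in C57BL/6J control libraries, and 240 and 257 in BALB/cJ LPS against 467, 531, 526 and 467. Its log2 ratios, -0.94 and -1.0, fall on either side of the call limit although both strains show a similar drop.

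Of the distal Jun gains, the region 75.9 kb upstream, with the AP-1 site printed above, held 1.4, 22.1 and 6.37 tags in C57BL/6J LPS against 1.16, 1.6, 1.3 and 0 in C57BL/6J control libraries. BALB/cJ libraries held 30.5 and 43.1 under LPS against 1.32, 0, 0 and 3.41. In hybrids it held 105, 95, 117, 145 and 83.8 under LPS against 5.65, 2.79, 8.97 and 1.12 in controls (log2 4.52 ± 0.45, adjusted p = 6.1e-09, edgeR). C57BL/6J LPS replicate 1 was again within the control range. The region 136 kb upstream, also with an AP-1 site, showed 7.02, 26.3 and 19.1 tags in C57BL/6J LPS against 4.06, 1.6, 2.6 and 2.66, and 40.1 and 33.4 in BALB/cJ LPS against 0, 1.95, 2.68 and 2.21 (log2 2.56 and 4.20). Both regions thus rose in 2 inbred strains and in the hybrid, from a low level.

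Junb and Jund encode JUN proteins that often oppose JUN in its growth-promoting role, and neither gene had an inbred peak that was called higher. Of 11 Junb peaks 1 was lower under LPS in C57BL/6J mice and 3 were in BALB/cJ mice. Of 12 Jund peaks 4 were lower in C57BL/6J mice and 5 in BALB/cJ mice. Without C57BL/6J LPS replicate 1 these were 2 Junb and 4 Jund peaks, and without replicate 3 they were 1 and 2. In hybrids 2 of 14 Junb and 10 of 24 Jund peaks were lower and none higher. On all mapped tags Junb turned, with 3 higher and 0 lower, while Jund had 0 higher and 5 lower. The Junb exon peak at 0.6 kb held 209, 115 and 72.5 normalised tags in C57BL/6J LPS against 243, 271, 213 and 229 in C57BL/6J control libraries. In BALB/cJ it held 57.5 and 70.4 under LPS against 177, 272, 118 and 107. It was called in BALB/cJ (log2 -1.38) and, at -0.88, not in C57BL/6J, where leaving out replicate 1 gave -1.31 and a call. Just beyond the 3′ end of Junb, at 2.1 kb, the order of the strains was the other way round, with log2 ratios of -1.37 in C57BL/6J and -0.81 in BALB/cJ.

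The Jund peak at 1.2 kb, in the 5′ UTR, held 180, 202 and 137 tags in C57BL/6J LPS against 379, 425, 398 and 359 in C57BL/6J control libraries, and 145 and 121 in BALB/cJ LPS against 427, 440, 380 and 340. The log2 ratios were -1.18 (adjusted p = 1.4e-06, edgeR) and -1.57 (adjusted p = 1.1e-07). In hybrids it held 892, 942, 967, 1064 and 937 under LPS against 1442, 1210, 1692 and 1284 in controls, and the ratio of -0.55 was not called. On all mapped tags it was 0.42. Its neighbour at 2.1 kb, in the exon, fell by 2.15 and 2.95 on the log2 scale in C57BL/6J and BALB/cJ.

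Atf3, whose protein dampens the LPS response, showed opposite changes at its promoter and at an upstream region in the inbred strains. The promoter peak, 0.1 kb upstream, held 171, 202 and 155 normalised tags in C57BL/6J LPS against 362, 403, 341 and 363 in C57BL/6J control libraries. Its BALB/cJ values were 102 and 95 under LPS against 336, 440, 281 and 298. The log2 ratios were -1.06 (adjusted p = 8.4e-06, edgeR) and -1.78 (adjusted p = 3.2e-08), with no overlap of the groups. In hybrids the promoter peak, 0.2 kb upstream there, gave -0.28 on perfectly mapped and 0.50 on all mapped tags, with no call on either. At 6.8 kb upstream, the intergenic region with the AP-1 site printed above held 2.81, 69.6 and 108 tags in C57BL/6J LPS against 4.64, 3.21, 1.3 and 3.99 in C57BL/6J control libraries. BALB/cJ libraries held 54.9 and 91.5 under LPS against 3.96, 1.95, 2.68 and 1.94. Replicate 1 of C57BL/6J LPS showed no gain at all here. The log2 ratio was 4.10 ± 0.60 in C57BL/6J (SE, adjusted p = 6.5e-06), 4.65 without replicate 1 (adjusted p = 8.3e-10), and 4.96 ± 0.63 in BALB/cJ (adjusted p = 4.4e-07). In hybrids all 5 LPS libraries rose, with 432, 436, 416, 487 and 391 tags against 7.53, 0, 20.5 and 16.9 in controls, a log2 ratio of 5.24 ± 0.34 (adjusted p = 1.4e-12). Of the Atf3 peaks as a whole 4 of 22 were higher and 2 lower in C57BL/6J, 3 and 2 of 22 in BALB/cJ, and 6 and 2 of 31 in CB6F1/J (6 and 0 on all mapped tags). The C57BL/6J counts were 5 and 3 without replicate 1, 2 and 2 without replicate 2, and 2 and 0 without replicate 3.

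Batf had more gains than losses in the inbred strains. In C57BL/6J 5 of 16 peaks were higher and 1 lower, in BALB/cJ 6 of 16 higher and 0 lower, while in hybrids 5 of 48 were higher and 9 lower. On all mapped tags this hybrid balance turned, with 9 of 45 Batf peaks higher and 1 lower. The C57BL/6J counts were 6 and 0 without replicate 1 and 2 and 1 without replicate 3. The region 16.9 kb downstream, in intron 2, with the NF-kB motifs printed above, held 44.9, 116 and 139 normalised tags in C57BL/6J LPS against 23.2, 12.8, 23.4 and 10.6 in C57BL/6J control libraries. In BALB/cJ it held 110 and 133 under LPS against 15.8, 6.83, 4.03 and 7.65. Every LPS library exceeded every control, with log2 ratios of 2.48 ± 0.38 in C57BL/6J (SE, adjusted p = 1.1e-05, edgeR) and 3.87 ± 0.42 in BALB/cJ (adjusted p = 3.8e-08). Hybrids had 636, 571, 580, 859 and 593 tags under LPS against 25.4, 34.9, 16.7 and 38.2 in controls (log2 4.49 ± 0.22, adjusted p = 1.5e-14). The intron region at 14.3 kb rose less, by 1.45 in C57BL/6J and 1.11 in BALB/cJ on the log2 scale. The peak at 0.2 kb was the lower one in C57BL/6J (log2 -1.32, adjusted p = 0.033), a call that was lost without replicate 1 (adjusted p = 0.089).

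Batf3, best known for its need in cross-presenting dendritic cells, was not called at its promoter in the inbred strains. The promoter peak held 88.5, 112 and 124 normalised tags in C57BL/6J LPS against 92.8, 120, 91 and 65.2 in C57BL/6J control libraries, and 123 and 137 in BALB/cJ LPS against 115, 166, 110 and 109. These ranges overlapped, with log2 ratios of 0.24 and 0.06 and no call. In hybrids the promoter was called higher, with 650, 611, 478, 612 and 609 tags under LPS against 327, 279, 247 and 277 (log2 1.07 ± 0.15, adjusted p = 2.0e-06, edgeR), a call that was lost on all mapped tags (0.63). The region 5.0 kb upstream, with an AP-1 site, held 11.2, 22.1 and 39 tags in C57BL/6J LPS against 8.12, 6.42, 1.3 and 9.31 in C57BL/6J control libraries, and 40.1 and 57.2 in BALB/cJ LPS against 6.59, 2.93, 10.7 and 5.25. Its log2 ratios were 1.92, 3.01 and, in CB6F1/J, 2.69.

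Gains and losses differed in position. Within 1 kb of a start, 0 of 21 members were higher and 6 lower in C57BL/6J, and 0 of 21 higher and 8 lower in BALB/cJ. Among all peaks within 1 kb, C57BL/6J had 2.85% higher and 15.6% lower, and BALB/cJ 5.49% and 20%. In hybrids 2 of 26 were higher and 10 lower, where 6.97% and 12.6% of all such peaks were called. Between 1 and 10 kb, 7 of 82 were higher and 23 lower in C57BL/6J, where 12.1% and 6.78% of all peaks in that range were called. In BALB/cJ the counts were 6 and 32 of 83 (17.6% and 9.07% of all), and in CB6F1/J 5 and 57 of 147 (11.8% and 12.5%). Beyond 10 kb, 19 of 122 were higher and 11 lower in C57BL/6J, against 16.7% and 5.36% of all peaks there. BALB/cJ had 23 and 16 of 128, against 20.2% and 8.72%, and CB6F1/J 39 and 44 of 277, against 17.7% and 8.89%. More gains than losses beyond 10 kb was thus common to all inbred peaks and not particular to the members. On all mapped tags the hybrid counts were 0 higher and 1 lower of 26 within 1 kb, 10 and 24 of 146 between 1 and 10 kb, and 56 and 19 of 271 beyond. Among peaks that the authors' annotation placed in exons, UTRs or at the 3′ end of a gene, no member was called higher. Of all such peaks 6.14% were higher in C57BL/6J, 8.79% in BALB/cJ and 6.86% in CB6F1/J, also a small share. The members called lower were 16 of 30 in C57BL/6J, 15 of 30 in BALB/cJ and 18 of 34 in CB6F1/J. Of all such peaks 16%, 18.1% and 15.4% were lower.

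**Figure D3:**
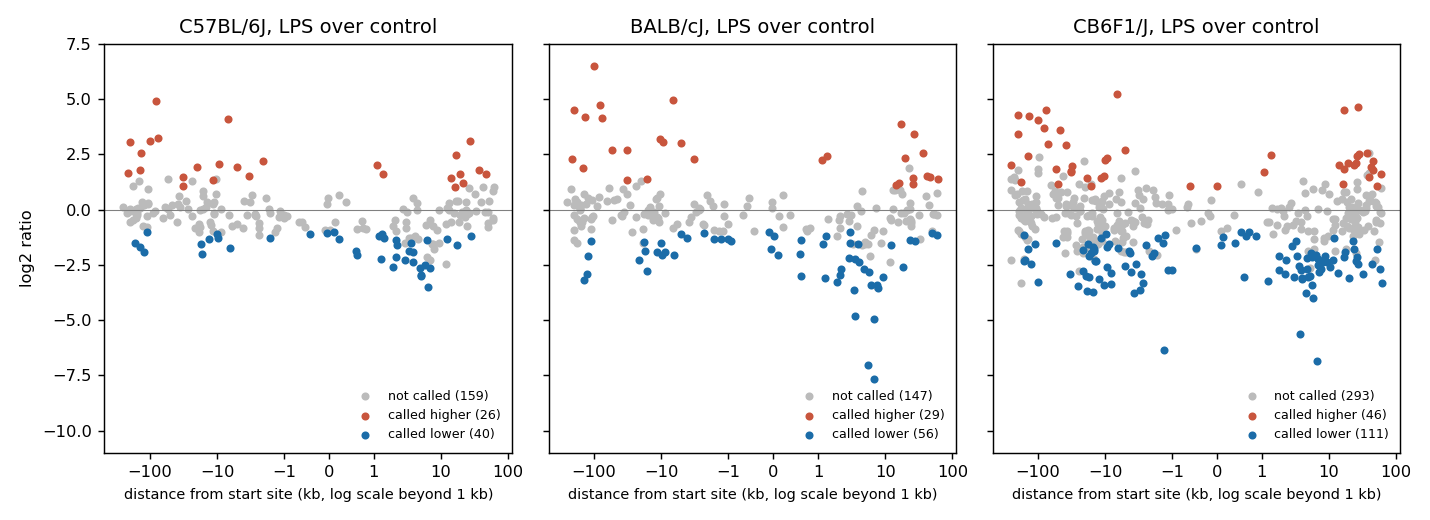
Log2 ratio of LPS over control (vertical axis) against signed distance from the annotated start for every tested member peak in C57BL/6J, BALB/cJ and CB6F1/J, with called peaks in colour. Called losses crowd around the start and called gains lie mostly beyond 10 kb in the inbred strains.

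AP-1 sites, that is TGACTCA or TGAGTCA on either strand, were found in the 201 bases of 26 of 233 inbred members (11.2%) and in 11.3% of all inbred peaks. They were found in 13 of the 26 members called higher in C57BL/6J (50%) and in 1 of the 40 called lower (2.5%). For all peaks these shares were 38.8% and 1.81%. In BALB/cJ they were found in 14 of 29 higher and 3 of 56 lower members (48.3% and 5.36%, against 36.3% and 2.12% of all), and in CB6F1/J in 19 of 46 and 4 of 111 (41.3% and 3.6%, against 32.5% and 2.03%). Among members as among all peaks, the site was more frequent in the gains than in the losses. NF-kB motifs lay in 22 members (9.44%) against 5.87% of all inbred peaks, and the CArG box, the SRF site of Fos enhancers, in 4 (1.72%) against 1.14%. The CRE, TGACGTCA, was in 0 members against 0.826% of peaks, and the PU.1 core, GAGGAAGT on either strand, in 15 (6.44%) against 8.61%. A match is a description of the letters and not of binding.

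Between untreated strains the AP-1 genes differed at few peaks. C57BL/6J over BALB/cJ controls gave 5 members higher and 2 lower of 152 tested, where 7.29% of all peaks were called. A/J over BALB/cJ controls gave 1 higher and 0 lower of 154 (4.58% of all peaks), and A/J over C57BL/6J controls 2 higher and 1 lower of 151 (7.16%). These comparisons share control libraries. Fosl2 and Batf3 each carried a region that differed between strains and, in the hybrid, between alleles.

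The Fosl2 region 23.8 kb upstream was more open in C57BL/6J than in the other strains. It held 15.4, 12, 10.2 and 7.82 normalised tags in A/J controls and 63.2, 77, 80.6 and 61.2 in C57BL/6J controls, against 22.4, 29.3, 17.4 and 15.3 in BALB/cJ controls. Every C57BL/6J library lay above every library of the other strains. The log2 ratio of C57BL/6J over BALB/cJ was 1.78 ± 0.28 (SE, adjusted p = 1.8e-05, edgeR), and that of A/J over C57BL/6J -2.61 ± 0.32 (adjusted p = 2.3e-07). The ratio of C57BL/6J LPS over BALB/cJ LPS libraries was 1.81 ± 0.39 (adjusted p = 0.0020), and 1.79 without C57BL/6J LPS replicate 1. In the hybrid, tags that span a parental variant tell the alleles apart. The C57BL/6J allele took 72.3, 71.2, 83.3, 71.6 and 75.9% of these tags in the LPS libraries, against 79.6, 72.8, 71 and 71% in the controls, with 68 C57BL/6J and 26 BALB/cJ tags in LPS replicate 1. The 95% Wilson intervals, which cover counting error only, ran from 59.4% at the lowest to 89.8% at the highest, so each library favoured the C57BL/6J allele. The allele ratio was 1.54 ± 0.17 under LPS (adjusted p = 3.9e-04) and 1.41 ± 0.20 in controls (adjusted p = 0.0018), and the change between treatments 0.13 ± 0.26 (adjusted p = 0.94). Total tags at the region gave a log2 ratio of -0.05 for LPS over control in the hybrid, with no call.

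At Batf3, 21.1 kb downstream, the C57BL/6J controls were the lower ones. A/J controls held 92.5, 89.7, 108 and 158 normalised tags. C57BL/6J LPS libraries held 63.2, 132 and 163 against 48.7, 46.5, 71.5 and 46.5 in C57BL/6J controls, and BALB/cJ LPS libraries 92.3 and 135 against 109, 115, 117 and 115 in BALB/cJ controls. Among controls every C57BL/6J library was the lower one, with a log2 ratio of -1.10 ± 0.24 for C57BL/6J over BALB/cJ (SE, adjusted p = 0.0017, edgeR) and 1.07 ± 0.25 for A/J over C57BL/6J (adjusted p = 0.0032). LPS raised the region in C57BL/6J (log2 1.19, adjusted p = 7.6e-04) and gave -0.01 in BALB/cJ. The test of that difference itself gave 1.20 ± 0.38 with an adjusted p of 0.36, so a strain-specific response is not shown.

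In the hybrid, the C57BL/6J allele of the Batf3 region took 53.7, 43.3, 54.3, 48.2 and 47.5% of variant-spanning tags under LPS, against 35.8, 22.2, 26.7 and 22.3% in controls. All 5 LPS shares exceeded all 4 control shares. The allele ratio was -0.06 ± 0.15 under LPS (adjusted p = 0.83, edgeR) and -1.51 ± 0.19 in controls (SE, adjusted p = 0.0012). By allele, C57BL/6J tags averaged 82.1 ± 10.7 under LPS and 27.7 ± 4.55 in controls, while BALB/cJ tags averaged 86.3 ± 15.6 and 79.8 ± 12.3 (SD, n = 5 and 4). The change of the allele ratio was 1.44 ± 0.24 with an adjusted p of 0.092, short of the threshold. DESeq2 gave 1.43 with an adjusted p of 0.0029. Variant-spanning tags were not found evenly in both treatments. At 6 of the 91 members that hold any, every control library had such tags and at least 4 of 5 LPS libraries had 0. At 1 member every LPS library had them and at least 3 of the 4 controls had 0. Over all peaks that hold any, these counts were 1041 and 1302 of 44533. At Batf3 they made up 37.5 to 78.2% of perfectly mapped tags under LPS against 36.3 to 56.6% in controls, ranges that overlap.

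**Figure D4:**
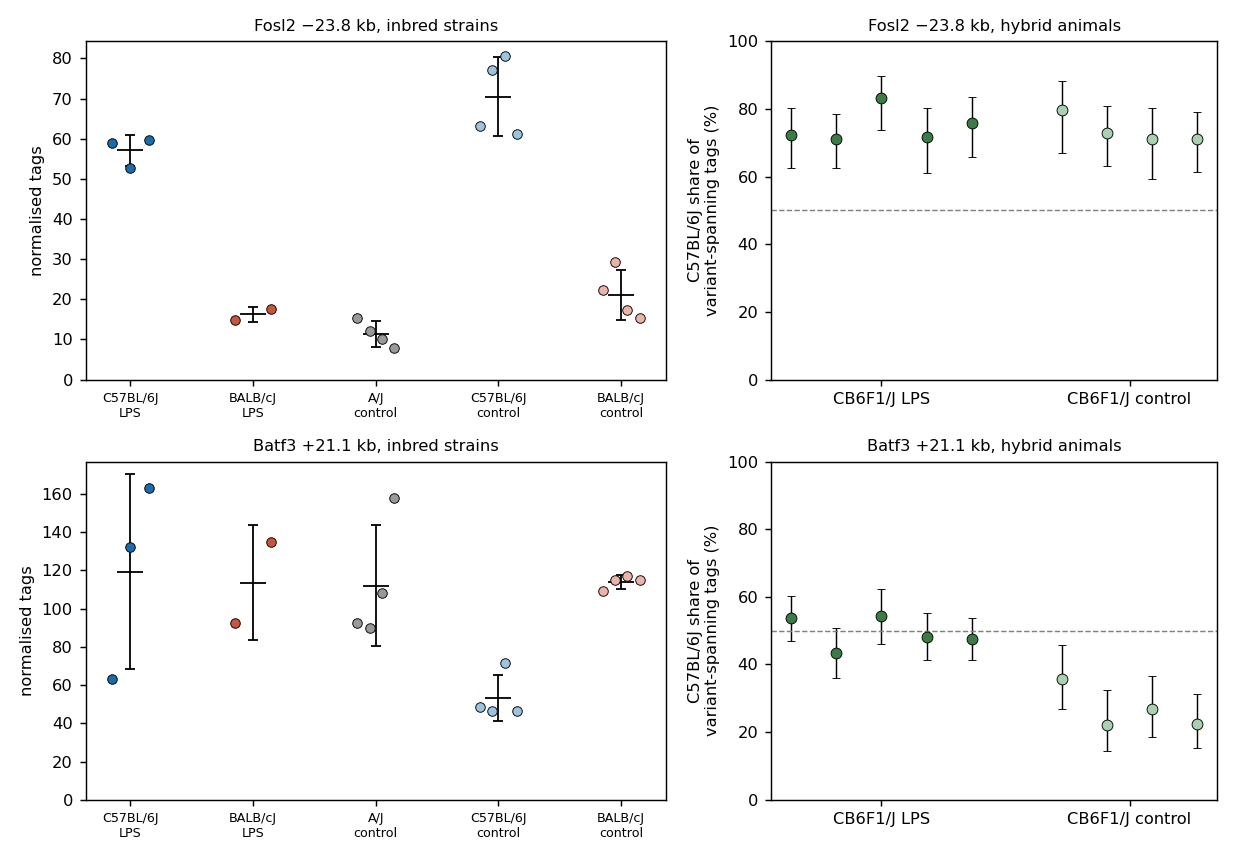
Normalised tags in each inbred library (left panels, points with group mean and SD) and share of variant-spanning tags on the C57BL/6J allele in each CB6F1/J library (right panels, percent with 95% Wilson intervals) for the Fosl2 region 23.8 kb upstream and the Batf3 region 21.1 kb downstream. Shares at Fosl2 lie between 71 and 83.3% in all 9 libraries, and at Batf3 between 43.3 and 54.3% under LPS and between 22.2 and 35.8% in controls.

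Other strain calls were single regions. Batf at 14.3 kb was lower in C57BL/6J than in BALB/cJ controls, with 34.2, 40.1, 32.5 and 38.6 tags against 68.6, 78, 98 and 93 (log2 -1.23, adjusted p = 6.9e-04, edgeR), and no hybrid tag there spans a variant. Higher in C57BL/6J than in BALB/cJ controls were Jun 1.7 kb upstream (log2 1.31, adjusted p = 0.0011, edgeR) and Fosl2 at 0.8 kb (1.40, adjusted p = 0.0076). Also higher were Fos at 14 kb (1.38, adjusted p = 0.03) and Fos at 58.5 kb (1.10, adjusted p = 0.04). Among the alternative settings described below, 5 lost the call at Fos 14 kb and 6 that at Fos 58.5 kb. The Fosl2 call was lost without BALB/cJ control replicate 4. Jun 2.4 kb upstream was the 1 call of A/J over BALB/cJ controls, with 32.4, 33.9, 48.8 and 53.2 tags against 18.5, 10.7, 12.1 and 21.8 (log2 1.33, adjusted p = 0.023). That Jun call was lost in 4 settings. Batf3 at 20.7 kb, which shares tags with the region at 21.1 kb, was higher in A/J than in C57BL/6J controls (log2 1.27).

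Under LPS, C57BL/6J over BALB/cJ libraries gave 5 members higher and 1 lower of 149, against 5.28% of all peaks, and without C57BL/6J LPS replicate 1 only 2 higher and 0 lower. Those left were the Fosl2 region 23.8 kb upstream and Fosb 11.6 kb upstream. The Fosb region held 202, 199 and 209 tags in C57BL/6J LPS against 102 and 80 in BALB/cJ LPS libraries (log2 1.16, adjusted p = 3.7e-05, edgeR). Without that library Fos at 0.1 kb went below the size limit (log2 0.80, with 1.33 when it is included), as did Fosb 16.5 kb upstream (0.75, with 1.28 when it is included). Jun 1.7 kb upstream kept its size (1.19 without it and 1.18 with it) and lost the call by its adjusted p of 0.068 (edgeR), and Jun 157.3 kb upstream gave -0.94 without it and -1.09 with it. The response to LPS itself differed between the strains at 0 of 232 members by edgeR and 0 by DESeq2, where edgeR called 0.145% of all peaks. At an unadjusted p under 0.05, 24 members (10.3%) passed, against 7.87% of all peaks.

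Alleles could be compared at few members, because 91 of the 452 hybrid peaks held any variant-spanning tag: 0 of 103 at Fos, 0 of 31 at Atf3, 0 of 48 at Batf, 4 of 41 at Fosb, 1 of 5 at Fosl1, 14 of 65 at Fosl2, 18 of 81 at Jun, 7 of 14 at Junb, 20 of 24 at Jund and 27 of 40 at Batf3. In LPS libraries 2 of 15 tested members were higher on the C57BL/6J allele and 0 lower, where 15.4% of all peaks were called. In controls 1 of 22 was higher and 2 lower, where 11.5% were called. The change of the allele ratio with LPS was called at 0 of 19 members by edgeR, against 0.0526% of all peaks. At an unadjusted p under 0.05, 4 (21.1%) passed, against 10.9% of all, and DESeq2 called the 1 Batf3 region above.

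The other allele calls were at Jun and Jund. At Jun 178.5 kb upstream the C57BL/6J share was 71.8, 80, 85.2, 90.5 and 83.3% under LPS, against 70.5, 52.2, 73.5 and 53.1% in controls. The allele ratio was 2.16 ± 0.31 under LPS (SE, adjusted p = 0.0012, edgeR) and 0.77 in controls (adjusted p = 0.18), and the change between them was not called (adjusted p = 0.32). At Jund, 1.2 kb into the gene, the share was 45, 37.2, 43.7, 41.7 and 44.4% under LPS, against 29, 27.5, 30.2 and 37.3% in controls. Here the control ratio was -1.19 ± 0.14 (adjusted p = 8.4e-04), while the inbred control libraries of the parental strains gave -0.02 at the same region. The inbred ratio counts all tags of the window. Variant-spanning tags at Jund made up only 9.55 to 16.9% of perfectly mapped tags in controls and 7.82 to 17.7% under LPS, so the 2 ratios are not alike. At the Jun region the shares were 14.5 to 23.4% in controls and 18.4 to 32.2% under LPS.

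Across the 5 inbred group means, the promoter peaks of Fos, Atf3 and Junb varied most (SD of mean log2 levels 1.05, 0.87 and 0.76) and those of Fosl2 and Batf3 least (0.33 and 0.23). Among 21159 promoter peaks of all genes, those most like Fos over the 17 libraries were at Zfp36l2, Sgms1 and Neat1 (Pearson r = 0.97 each). Most like Atf3 were Wdr18 (0.99), Mtmr14 and Pikfyve (0.98 each), and most like Junb were Egr1 (0.97), Nr4a1 (0.96) and Ier2 (0.95). Egr1, Nr4a1 and Ier2 are themselves immediate-early genes. The libraries share treatment groups, so these values describe a common pattern and carry no p.

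Outside the family, 41 genes of the AP-1 network (dimer partners, kinases, regulators of Fos and Jun transcription, and the IRF partners of BATF) gave 73 of 555 peaks higher (13.2%) and 47 lower (8.47%) under LPS in C57BL/6J, where 12.3% and 8.07% of all peaks were called. They gave 94 and 70 of 566 in BALB/cJ (16.6% and 12.4%, against 16.2% and 11.3%). In CB6F1/J they gave 168 and 138 of 1132 (14.8% and 12.2%, against 14.3% and 10.5%), over 40 genes. These shares lie close to those of all peaks. Among the kinases 37 of 225 were higher (16.4%) and 14 lower (6.22%) in C57BL/6J, 44 (19.6%) and 22 (9.78%) of 225 in BALB/cJ, and 82 (18.4%) and 35 (7.85%) of 446 in CB6F1/J, and all peaks likewise gained more than they lost. Dimer partners such as Atf2, Jdp2 and Cebpb gave equal counts in C57BL/6J, with 21 of 162 higher and 21 lower (13% each). They did so in BALB/cJ too, with 27 and 27 of 167 (16.2% each). In CB6F1/J they gave 46 and 57 of 340 (13.5% and 16.8%). The dimer partners' share of losses was thus above that of all peaks in each comparison, and their share of gains close to it.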

How the data were processed

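ATAC-seq libraries of sorted Kupffer cells were compared through 2 tables of tags per peak. The authors trimmed reads, aligned them with Bowtie2 to strain genomes built from mm10, shifted positions to mm10 with MMARGE, made tag directories and peaks with HOMER, kept peaks by IDR between replicates, merged them, and counted tags in windows of 1000 bases. Upstream versions are not given in the sources used here. The deposited counts of the inbred LPS libraries are whole raw tags. The deposited values of all other libraries are estimated counts in fractions of a tag, rounded up here before testing. Hybrid values were counted by the authors as all mapped, perfectly mapped or variant-spanning tags on either parental genome.

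Counts were tested with edgeR 4.0.16 (R 4.3.3), TMM scaling, in 1 model over the 17 inbred libraries, with Benjamini-Hochberg adjustment over all peaks tested. The mean normalised count had to exceed 16 for strain and allele tests and 4 for LPS tests. Errors are SE = log2 ratio over the root of the F statistic. Alleles were tested on variant-spanning tags with the animal as a block, since both alleles come from the same library. Inbred peaks were used if they lay on a numbered chromosome, X or Y (96238 of 96381). Hybrid peaks were used only on numbered chromosomes (213225 of 217456), so hybrid shares of all peaks leave out X and Y. Mitochondrial peaks were left out of both. All mapped tags had been planned for the hybrid LPS response, and perfectly mapped tags replaced them because the control columns did not match. Peaks of the inbred and hybrid tables were matched by an overlap of 100 bases. The promoter peak was the strongest within 1 kb of a start, and up to 3 called peaks per gene and comparison with the largest ratios were eligible for naming, with neighbouring and parallel regions added after their values were seen. Likeness used log2 of the normalised count plus 1. Tests were also run on simulated counts built from the means, library sizes and spread of the real libraries. They recovered 69 to 91% of the changed peaks, which had log2 changes of 2 or 3 in either direction and mean counts above 16. Smaller changes and changes in weaker peaks were not simulated. DESeq2 1.42.0, other scalings, other minimum counts, a replicate block and leaving out each library were the alternatives. The members and the marker and network lists were chosen with earlier results of these data known.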

Additional observations from a re-analysis of the deposited data

Results flagged for a closer look

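In 20 of 244 sets of 4 or 5 libraries (8.2%) 1 library lay far from the others of its group, where chance gives about 5%. At regions that are nearly closed the distant value is a single tag or a few: Fosl2 80.7 kb upstream in C57BL/6J control replicate 2 (1.6 normalised tags, others 0), Jun 75.9 kb upstream in A/J control replicate 4 (1.56, others 0), Jun 136 kb upstream in A/J control replicate 2 (2.19, others 0), Fosl2 100.6 kb upstream in BALB/cJ control replicate 4 (0.0921, others 0), Fosb 6.6 kb downstream in CB6F1/J LPS replicate 2 (2.71, others 0 to 0.756) and Fosb 1.3 kb upstream in CB6F1/J LPS replicate 4 (0.771, others 0). Low regions with a high library were Fosl2 200.4 kb upstream in A/J control replicate 1 (17, others 0 to 2.19) and in CB6F1/J control replicate 3 (21.8, others 12.6 to 14.1), Fosl2 100.5 kb upstream in CB6F1/J control replicate 2 (16.8, others 0 to 2.82), Fosl2 27.1 kb downstream in BALB/cJ control replicate 2 (5.85, others 1.11 to 1.34), Fos 14 kb downstream in A/J control replicate 1 (37, others 10.2 to 12.5) and Fosl1 0.2 kb downstream in A/J control replicate 2 (15.3, others 4.63 to 6.1).

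Among the more open regions, the high libraries were at Fos 0.1 kb downstream in A/J control replicate 2 (486, others 407 to 416), the Batf3 promoter in BALB/cJ control replicate 2 (166, others 109 to 115), Batf3 21.1 kb downstream in C57BL/6J control replicate 3 (71.5, others 46.5 to 48.7), Jun 157.3 kb upstream in A/J control replicate 4 (73.6, others 52.5 to 54.9), Batf 16.9 kb downstream in CB6F1/J LPS replicate 4 (859, others 571 to 636) and Fosl2 23.8 kb upstream in CB6F1/J LPS replicate 2 (196, others 119 to 138). Low ones were at Jun 1.7 kb upstream in C57BL/6J control replicate 2 (41.7, others 55.9 to 57.2) and Junb 2.3 kb upstream in C57BL/6J control replicate 3 (182, others 209 to 210).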

How the results depend on the processing

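Over 104 named region results, 1432 of 1545 alternative values kept direction and call, 111 lost the call, and 2 reversed: the Junb region 0.5 kb into the gene in CB6F1/J, 0.31 on all mapped tags of either parental genome. Only 70 of the 104 results never lost their call under any alternative. Of 26 named hybrid LPS regions, 20 kept their call on all mapped tags of mm10, the values first planned for this comparison. The perfectly mapped tags were made the reported values after seeing the data. The hybrid count was 156 on perfectly mapped BALB/cJ tags, 185 by DESeq2 and 15 of 57 on variant-spanning tags, which lie in few peaks. Counts of calls for A/J over BALB/cJ controls were 2 with no minimum, 2 with a minimum of 4 and 2 with a replicate block, and for A/J over C57BL/6J controls 7 with no minimum and 8 with a minimum of 4. C57BL/6J LPS over BALB/cJ LPS gave 10 calls with the block and 3 when only the libraries compared entered the fit. The allele difference gave 1 by DESeq2.

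Leaving out 1 library at a time gave 0 to 3 calls for A/J over BALB/cJ controls (0 without BALB/cJ control replicate 3), 3 to 4 for A/J over C57BL/6J controls, 4 to 9 for C57BL/6J over BALB/cJ controls (4 without BALB/cJ control replicate 4, the deepest library), 34 to 84 for LPS in C57BL/6J, 58 to 88 for LPS in BALB/cJ, 2 to 9 between the strains under LPS, 136 to 162 for LPS in CB6F1/J, 2 to 3 for alleles under LPS, 3 for alleles in controls, 0 to 1 for the allele difference and 0 to 1 for the strain difference in LPS response. Scaling to total tags moved the median of all peaks by 0.11 (log2) in C57BL/6J LPS, 0.12 in BALB/cJ LPS and -0.13 in CB6F1/J LPS, and the members' median stayed negative in each.

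Replicate numbers are shared between groups, but the labels tie them to no shared animal or day. Same-numbered control libraries of different strains correlated at 0.054 to 0.375, with at least 1 pair under 0.1 in each comparison. In 28 of 58 cases a library correlated best with its own number in another group, where 17.4 would if numbers were only names, a hint from the data that some numbers mark something shared. With a replicate block the counts were 7, 2 and 4 for the strain comparisons of controls, 76, 95 and 133 for LPS in C57BL/6J, BALB/cJ and CB6F1/J, and 0 for the strain difference. Without the animal block the allele counts were 3, 2 and 0. Depth limits regions near 0 in the inbred controls: folds were left out at Fosb 6.8 kb and Fosl2 80.7 kb, and those at Jun 136 kb and Atf3 6.8 kb upstream rest on few control tags.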
